A study of Mus musculus with 10 samples.

Results

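The 10 genes described here encode the core machinery of histone H3 lysine 9 (H3K9) methylation and retroelement silencing, *Setdb1*, *Trim28*, *Atf7ip*, *Suv39h1*, *Suv39h2*, *Ehmt1*, *Ehmt2*, *Cbx1*, *Cbx3* and *Cbx5*. They were taken as a list of known heterochromatin factors, and all 10 were found among the 20325 genes of the expression table, with counts in every library. Across the murine embryonic stem cell (mESC) lines their transcripts kept within a 2.8-fold range between the lowest and the highest library. No member passed edgeR's test (adjusted p under 0.05) when a rescued line was set against its knockout (KO) line, where 0.205% to 1.34% of all genes passed. When the H3.3 lines were set against the *Daxx* lines 7 of 10 passed, where 39.7% of all genes did, with *Suv39h2* higher and *Suv39h1* lower in every H3.3 library. Such separation of the libraries held for 2 of 10 members and for 22.6% of all genes.

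Methylated H3K9 is the main histone mark of silent chromatin. SETDB1 trimethylates H3K9 at endogenous retroviruses (ERVs), where it is brought by KAP1, the product of *Trim28*, which itself binds KRAB zinc finger proteins on the DNA, and ATF7IP keeps SETDB1 stable in the nucleus. SUV39H1 and SUV39H2 trimethylate H3K9 at pericentric satellite repeats, and GLP (*Ehmt1*) and G9a (*Ehmt2*) work as a heterodimer that places H3K9 mono- and dimethylation in euchromatin. The HP1 proteins, HP1β (*Cbx1*), HP1γ (*Cbx3*) and HP1α (*Cbx5*), read the mark through their chromodomain. In mESCs, loss of SETDB1 or KAP1 is known to release ERVs such as IAP elements.

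PolyA RNA-Seq libraries of 5 mESC lines were compared, with 2 biological replicates per line. The *Daxx* lines, of strain 129/SvEv, were *Daxx* -/- and *Daxx* -/- + *Daxx* WT. The H3.3 lines, of mixed 129 x C57BL/6J background, were H3.3 KO, H3.3 KO + H3.3 WT and H3.3 KO + H3.3 L126A-L130A, the mutant being used by the study as a form of H3.3 that DAXX binds but nucleosomes do not take up. The mutant is spelled here as in the labels, whereas the study mostly writes L126A-I130A. Every rescue was an epitope-tagged transgene delivered by lentivirus and kept under puromycin selection, whereas both KO lines were cell lines obtained from other laboratories. All lines were grown without feeders on gelatin in 2i + LIF medium (CHIR99021 and PD0325901). Each genotype was thus represented by the replicates of 1 line, and the line obtained, its strain and its engineered gene cannot be told apart in a comparison of the H3.3 lines with the *Daxx* lines. The p-values measure the spread between replicate libraries of these lines.

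Libraries held between 15463625 and 21396585 expected counts, and the members had between 341 counts (*Suv39h1*) and 48929 counts (*Trim28*) in a library. *Daxx* transcripts were at 207 and 206.1 normalised CPM (expected counts scaled to a common library size with median-of-ratios factors) in the rescued libraries, against 82.7 and 71.9 in *Daxx* -/-. The H3.3 lines, whose labels name no change of *Daxx*, had 59.2 to 101.6, so the whole-gene count shows the transgene but not the loss of the endogenous gene. *H3f3a* was at 2.84 to 10.9 CPM in the H3.3 lines against 376.5 to 494.3 in the *Daxx* lines. *H3f3b* was at 508.2 and 719.1 in H3.3 KO, 204.1 and 138.8 with WT H3.3, and 389.2 and 323.2 with the mutant, and so does not check the KO label. All 8 mESC markers were expressed (summed level 6149 to 8557 CPM), while the summed markers of primitive endoderm (4.48 to 16.3 CPM, 4 genes), fibroblasts (4.28 to 40.4, 5 genes), trophectoderm (6.9 to 23.7, 3 genes) and germ layers (3.61 to 13.4, 5 genes) stayed low. *Col1a2*, *Col3a1*, *Postn*, *Cdx2* and *Elf5* each had at least 1 library at 0. The other markers of these lists were above 0 in every library. The highest levels were those of the fibroblast marker *Thy1* (3.26 to 35.6 CPM) and the trophectoderm marker *Eomes* (6.43 to 23.6). Replicate 2 of *Daxx* -/- stood apart from replicate 1 more than in any other line, with a chi-square per gene of 59.1 against 9.07 to 27.4 elsewhere. In these bulk samples, fewer cells of a type and less RNA per cell cannot be told apart.

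Promoters are shown for the members with the sharpest contrasts below. *Suv39h1* and *Suv39h2* are the paralogs that moved in opposite directions between the H3.3 and the *Daxx* lines, and *Setdb1* and *Ehmt2* had the largest differences between mutant and WT H3.3. Each sequence runs 5′ to 3′ on the strand of the gene from 250 bases before to 50 bases after a RefSeq transcript start (GRCm38.p6), and capitals mark matches on either strand to the motif letters of NF-Y (CCAAT), SP1 (GGGCGG), ETS factors (CCGGAAG), YY1 (AAGATGGC) and the cAMP response element (TGACGTCA).
Suv39h1 (chrX:8074711-8075010, minus strand): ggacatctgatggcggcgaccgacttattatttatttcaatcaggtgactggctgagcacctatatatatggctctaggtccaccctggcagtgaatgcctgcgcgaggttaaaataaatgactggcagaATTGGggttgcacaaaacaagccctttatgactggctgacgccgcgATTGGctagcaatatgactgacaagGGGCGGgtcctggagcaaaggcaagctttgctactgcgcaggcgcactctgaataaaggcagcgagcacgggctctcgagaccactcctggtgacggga
Suv39h2 (chr2:3474937-3475236, minus strand): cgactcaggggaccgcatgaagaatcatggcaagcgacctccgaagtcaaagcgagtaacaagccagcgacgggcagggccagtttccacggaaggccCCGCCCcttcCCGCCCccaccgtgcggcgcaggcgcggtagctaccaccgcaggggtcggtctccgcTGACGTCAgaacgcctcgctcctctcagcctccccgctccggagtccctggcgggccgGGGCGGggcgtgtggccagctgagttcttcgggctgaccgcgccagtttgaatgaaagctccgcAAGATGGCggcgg
Setdb1 (chr3:95357153-95357452, minus strand): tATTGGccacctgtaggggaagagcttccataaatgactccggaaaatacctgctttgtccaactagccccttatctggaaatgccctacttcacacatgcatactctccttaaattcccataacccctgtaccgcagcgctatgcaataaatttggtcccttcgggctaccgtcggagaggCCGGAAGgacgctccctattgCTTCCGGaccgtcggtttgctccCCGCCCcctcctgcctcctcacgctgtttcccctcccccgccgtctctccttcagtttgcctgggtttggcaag
Ehmt2 (chr17:34898224-34898523, plus strand): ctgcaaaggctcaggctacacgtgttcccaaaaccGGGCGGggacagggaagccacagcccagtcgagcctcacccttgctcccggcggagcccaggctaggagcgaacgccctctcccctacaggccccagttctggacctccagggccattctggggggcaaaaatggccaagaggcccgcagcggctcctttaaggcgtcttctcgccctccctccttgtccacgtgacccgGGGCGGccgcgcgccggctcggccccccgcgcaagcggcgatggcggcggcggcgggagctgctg

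The windows shown for the SUV39H paralogs differed in base composition and in some of the letters, but the second *Suv39h1* start did not share this contrast. That second window had 71.0% G+C, 37 CG dinucleotides, no CCAAT box and 1 match each to the SP1 and YY1 letters, close to *Suv39h2* in composition. The *Suv39h1* window shown had 53.0% G+C, 15 CG dinucleotides, 2 CCAAT boxes and 1 match to the SP1 letters. The *Suv39h2* window had 68.3% G+C, 33 CG dinucleotides, no CCAAT box and 3 matches to the SP1 letters. It also had 1 match each to the YY1 and cAMP response element letters. The *Setdb1* window had 55.3% G+C and held both ETS matches found among the members, and the *Ehmt2* window had 70.3% G+C and only SP1 letters. The table held 14 windows for the 10 members, with 2 starts each for *Suv39h1*, *Ehmt2*, *Cbx3* and *Cbx5*. SP1 letters stood in a window of all 10 members, NF-Y letters in 4 (*Setdb1*, *Atf7ip*, *Suv39h1*, *Cbx5*), YY1 letters in both *Suv39h1*, at its second start, and *Suv39h2*, E2F letters (TTTGGCGC) in *Cbx3* alone and NRF1 letters (GCGCATGC) in none. Of all 32851 windows of the table, 35.7% held SP1 letters, 37.4% NF-Y, 8.86% ETS, 2.75% YY1, 1.79% the cAMP response element, 0.514% E2F and 2.71% NRF1. No motif match overlapped another in the windows shown, and a match describes letters only.

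The members differed widely in level. Per kilobase of merged exon, the median normalised CPM over the 10 libraries was 342.8 for *Trim28*, the most abundant member by far. The HP1 genes followed at 59.9 (*Cbx5*), 52.9 (*Cbx3*) and 25.5 (*Cbx1*) CPM per kilobase. *Setdb1* (20.7) and *Ehmt2* (20.0) were close to each other, as were *Suv39h2* (10.2) and *Ehmt1* (9.08), and *Atf7ip* (6.18) and *Suv39h1* (4.78) were lowest. Library ranges of neighbours in this order overlapped, except between *Trim28* and *Cbx5*, between *Ehmt2* and *Suv39h2*, and between *Ehmt1* and *Atf7ip*. This order depends on the length used, since per kilobase of the longest coding transcript *Cbx3* (167.9) came before *Cbx5* (61.3), and *Atf7ip* (15.9) before *Ehmt1* (12.4).

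**Figure D1:**
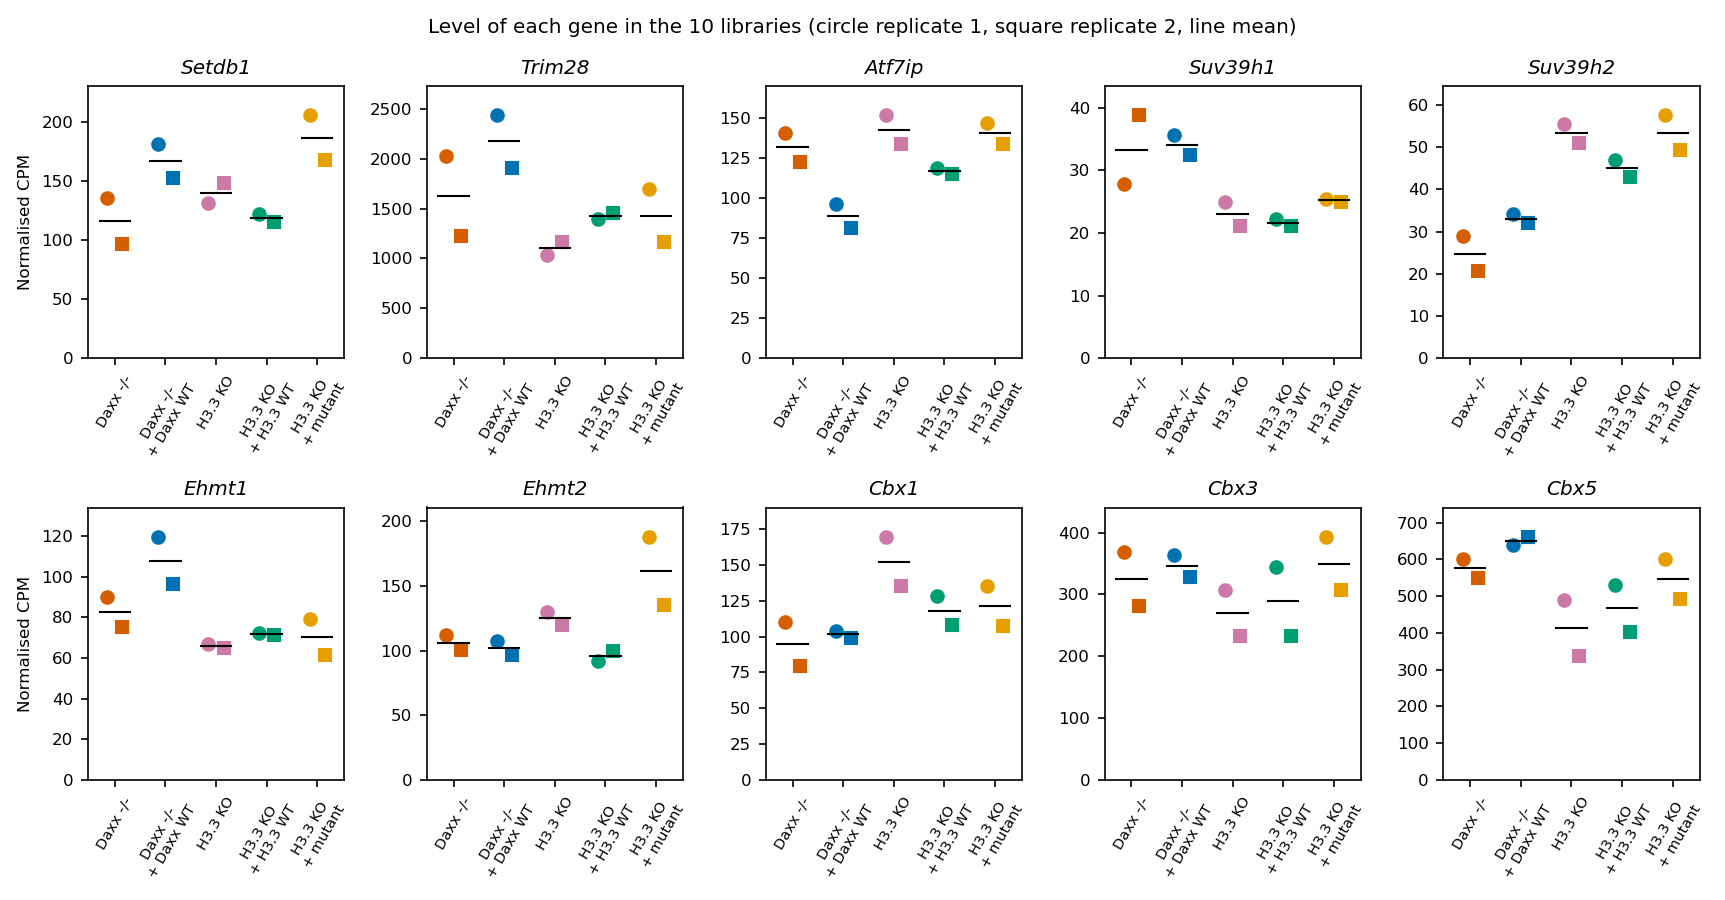
Level of each of the 10 genes (normalised CPM, linear axis from 0) in the 10 libraries. Circles are replicate 1, squares replicate 2, and lines the mean of the 2 replicates of a line. *Suv39h1* lies lower and *Suv39h2* higher in all 6 H3.3 libraries than in any of the 4 *Daxx* libraries. Such separation held for 22.6% of all genes.

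The SETDB1 arm was described first. *Setdb1*, the H3K9 trimethylase of ERVs (chr3:95323525-95357202, minus strand, GRCm38), was at 135.2 and 96.9 normalised CPM in *Daxx* -/- and at 181 and 152 after rescue with *Daxx* WT. It was at 131.5 and 147.9 in H3.3 KO, 122.1 and 114.8 with WT H3.3, and 205.4 and 167.3 with L126A-L130A. Both rescued *Daxx* libraries thus lay above both *Daxx* -/- libraries, and both mutant libraries above those of H3.3 KO and of WT H3.3. Of the 50-base stretches of its transcripts, 10.2% also occur in transcripts of other genes, mainly *Gm4349*, and reads from these may be split.

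*Trim28*, which encodes KAP1 (chr7:12999114-13031035, plus strand), was at 2023 and 1225 CPM in *Daxx* -/- and 2434 and 1908 after rescue. In the H3.3 lines it was at 1037 and 1168 (KO), 1396 and 1455 (WT H3.3), and 1691 and 1168 (mutant). Its replicates were the furthest apart of any member, differing 1.65-fold in *Daxx* -/- and 1.45-fold in the mutant line, and its libraries overlapped between *Daxx* -/- and rescue. *Atf7ip*, the SETDB1 partner (chr6:136506167-136610862, plus strand), ran the other way. It was at 140.7 and 122.4 CPM in *Daxx* -/- and only 96.3 and 81.5 after rescue, the lowest libraries of the series for this gene. The H3.3 lines had 151.7 and 133.6 (KO), 118.7 and 115.1 (WT H3.3), and 146.6 and 134 (mutant), so that the WT H3.3 libraries lay below those of both other H3.3 lines.

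The SUV39H paralogs were the 2 of 10 members whose libraries did not overlap between the families of lines, where 22.6% of all genes did not. *Suv39h1* (chrX:8061171-8074760, minus strand) was at 27.8 and 38.8 CPM in *Daxx* -/- and 35.7 and 32.4 after rescue. It was at 25 and 21.1 in H3.3 KO, 22.2 and 21.1 with WT H3.3, and 25.4 and 25 with the mutant, all below the lowest *Daxx* library. The *Suv39h1* locus lies opposite *Gm14820*, an antisense gene with which most of the 12.2% shared 50-base stretches of *Suv39h1* are held in common, and without a stated strand setting reads from the pair cannot be told apart. *Suv39h2* (chr2:3455815-3475031, minus strand) was at 29 and 20.6 CPM in *Daxx* -/- and 34.1 and 31.9 after rescue. The H3.3 lines had 55.5 and 50.9 (KO), 46.9 and 43 (WT H3.3), and 57.5 and 49.3 (mutant), all above the highest *Daxx* library. *Suv39h2* shares 4.89% of its 50-base stretches, mainly with *Dclre1c* on the opposite strand.

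*Ehmt1*, encoding GLP (chr2:24789928-24919614, minus strand), was at 90.2 and 75.2 CPM in *Daxx* -/- and 119.7 and 96.2 after rescue, with both rescued libraries above both KO libraries. In the H3.3 lines it stayed between 61.4 and 79.4, the mutant libraries marking both ends of that range. *Ehmt2*, encoding G9a (chr17:34898469-34914052, plus strand), was steady in the *Daxx* lines, at 111.9 and 100.7 (KO) and 107.5 and 96.9 (rescue). It was spread in the H3.3 lines, at 129.9 and 120.1 (KO), 92.3 and 100.1 (WT H3.3), and 188.2 and 135.3 (mutant). The 3 H3.3 lines did not overlap one another for this gene, with WT H3.3 lowest and the mutant highest. In pairs of these lines, 45.2% to 56.0% of all genes did not overlap, and *Ehmt2* was not called in any pair in edgeR.

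Among the HP1 genes, *Cbx1* (chr11:96789127-96808640, plus strand) was at 109.9 and 79.1 CPM in *Daxx* -/- and 103.6 and 99.3 after rescue. It was highest in H3.3 KO, at 169.6 and 134.9, with 128 and 108 under WT H3.3 and 134.9 and 107.4 under the mutant. *Cbx3* (chr6:51470360-51483704, plus strand) was the steadiest member across lines, ranging from 233 to 393.3 CPM with a 1.3-fold ratio between the highest and the lowest line mean. *Cbx3* shares 8.67% of its 50-base stretches with other genes, mainly *Gm49164*. *Cbx5* (chr15:103191544-103239816, minus strand) was at 602 and 548.9 CPM in *Daxx* -/- and 639.7 and 662 after rescue, against 489.9 and 337.5 (H3.3 KO), 529.7 and 403.5 (WT H3.3), and 600.8 and 493.7 (mutant). Over the members, the ratio of the highest to the lowest line mean ran from 1.3 (*Cbx3*) to 2.16 (*Suv39h2*).

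Rescue with DAXX was then compared with the *Daxx* KO, which asks whether the silencing machinery differs at the transcript level when DAXX is restored. None of the 10 members passed an adjusted p of 0.05 in edgeR's quasi-likelihood test, where 1.34% of all 13201 genes tested did. An unadjusted p under 0.05 was reached by 2 members, *Atf7ip* and *Setdb1*, against 21.6% of all genes. *Atf7ip* had a log2 fold change of −0.57 ± 0.15 (SE, n = 2 against 2, adjusted p = 0.0826 in edgeR), or 88.9 against 131.6 CPM. *Setdb1* had 0.52 ± 0.19 (adjusted p = 0.165 in edgeR), or 166.5 ± 20.5 against 116.1 ± 27.1 CPM (SD, n = 2). With library totals alone *Atf7ip* passed in edgeR (adjusted p = 0.045), as it did with the replicate number as a block (0.0185). It also passed in DESeq2 (0.00771), whereas limma called no member. Without replicate 1 of *Daxx* -/-, *Setdb1* (0.78, adjusted p = 0.0349) and *Suv39h2* (0.68, adjusted p = 0.0414) passed in edgeR.

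The remaining members had smaller values in the DAXX comparison, from 0.42 ± 0.25 (*Trim28*) and 0.41 ± 0.19 (*Suv39h2*) to −0.06 ± 0.17 (*Ehmt2*). Libraries of the rescue and of the KO did not overlap for 5 of 10 members (*Setdb1*, *Suv39h2*, *Ehmt1* and *Cbx5* above, *Atf7ip* below), which is near the 46.2% of all genes. The median log2 fold change of the members was 0.14 beside −0.01 for all genes. The 95% interval of every member lay within a 2-fold change, between −0.89 and 0.99 on the log2 scale.

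Restoring WT H3.3 gave no called member either, at a background of 0.205% of genes, and no member had an unadjusted p under 0.05 in edgeR, against 13.3% of genes. DESeq2 and limma also called 0 of 10, with 1 member under an unadjusted 0.05 in DESeq2 and 0 in limma. *Ehmt2* had the smallest p, at −0.38 ± 0.17 (96.2 against 125 CPM, adjusted p = 0.388 in edgeR). *Cbx1* had −0.37 ± 0.20 and *Atf7ip* −0.29 ± 0.15. *Trim28* had 0.37 ± 0.25, with both WT H3.3 libraries above both KO libraries. Libraries did not overlap for 7 of 10 members, 5 of them lower with WT H3.3, while 56.0% of all genes did not overlap. The median of the members was −0.17 beside 0.02 for all genes, and all 10 intervals lay within a 2-fold change.

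With the L126A-L130A mutant in place of no H3.3, 0 of 10 members were called at a background of 0.97%, and none had an unadjusted p under 0.05 in edgeR or limma, and 1 in DESeq2. *Setdb1* (0.42 ± 0.19), *Cbx5* (0.40 ± 0.20) and *Ehmt2* (0.37 ± 0.17) were the members whose mutant libraries both lay above both KO libraries, 3 of 10 where 50.0% of all genes did not overlap. *Suv39h2* (0.01 ± 0.18) and *Atf7ip* (−0.02 ± 0.14) had values close to 0. The median was 0.25 beside 0.04 for all genes, and all 10 intervals lay within a 2-fold change. The H3.3 KO libraries enter this comparison and the preceding one, so the values of the 2 rescues against KO are not independent of each other.

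The mutant was set directly against WT H3.3, which asks whether the form of H3.3 in the rescued line goes with a difference. No member passed in edgeR, at a background of 0.515%. *Ehmt2* had the largest value, 0.75 ± 0.17 (161.7 ± 37.4 against 96.2 ± 5.51 CPM, SD, n = 2, adjusted p = 0.112 in edgeR), and *Setdb1* the next, 0.65 ± 0.19 (186.4 ± 27.0 against 118.4 ± 5.17 CPM, adjusted p = 0.184 in edgeR). These were the 2 members with an unadjusted p under 0.05, against 12.4% of all genes. In DESeq2 both passed, *Ehmt2* at an adjusted p of 0.00524 and *Setdb1* at 0.0449, while limma called neither. Their intervals reached beyond a 2-fold change (to 1.14 and 1.08 on the log2 scale), and those of the other 8 members did not. Libraries did not overlap for 5 of 10 members, all 5 higher with the mutant, where 45.2% of genes did not overlap. *Trim28*, with 1429 against 1425 CPM, had a log2 fold change of 0.00 ± 0.25. The median of the members was 0.24 beside 0.01 for all genes.

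**Figure D2:**
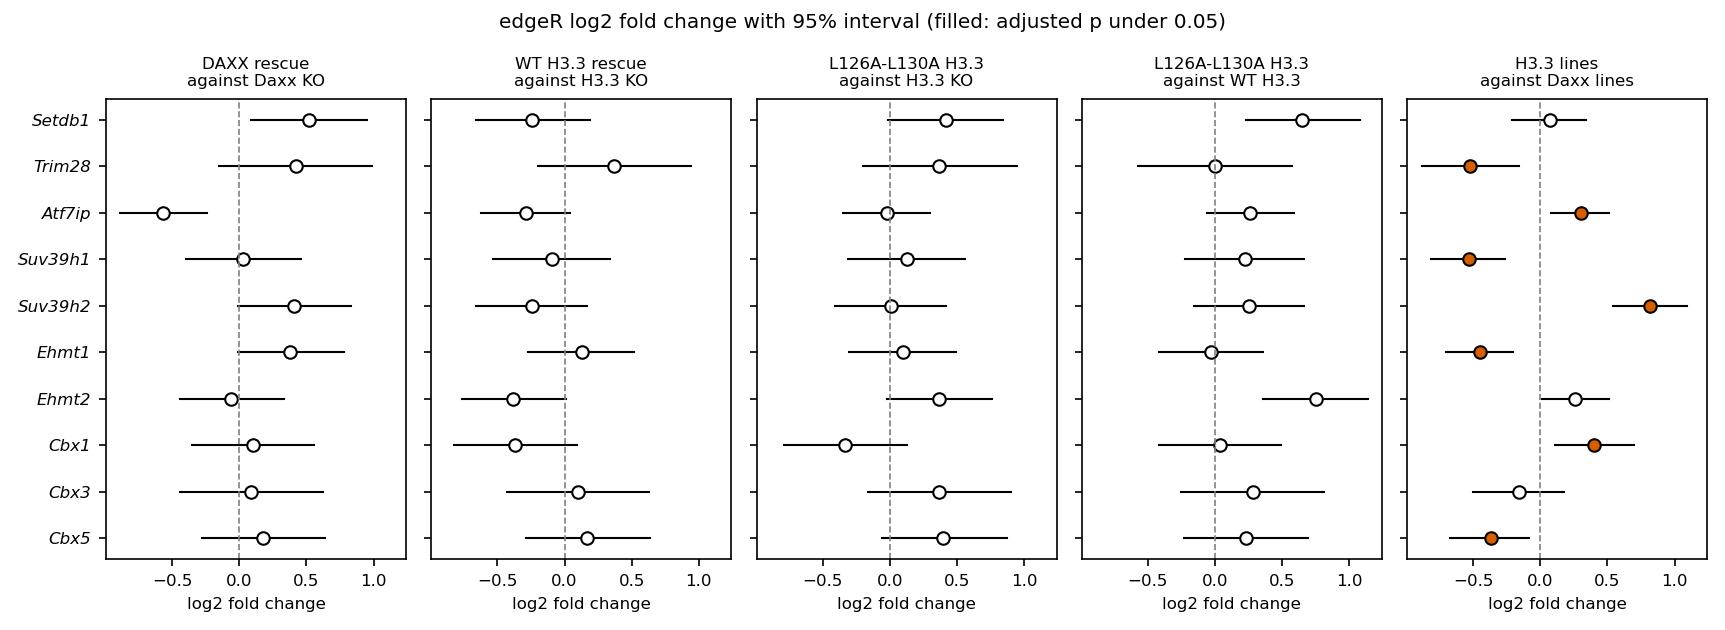
Log2 fold changes of the 10 genes from the edgeR fit in the 5 comparisons, points with 95% intervals. Filled points have an adjusted p under 0.05, which 0 of 10 genes reached in each of the 4 comparisons within a family of lines (0.205% to 1.34% of all genes) and 7 of 10 between the families (39.7% of all genes).

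The H3.3 lines (n = 6) differed from the *Daxx* lines (n = 4) in 7 of 10 members, 3 higher and 4 lower. This is read against a background in which 39.7% of all genes were called, 19.3% higher and 20.4% lower. *Suv39h2* rose by 0.82 ± 0.12 on the log2 scale (50.5 ± 5.39 against 28.9 ± 5.92 CPM, adjusted p = 0.00109 in edgeR) and *Suv39h1* had −0.53 ± 0.12 (23.3 ± 2.04 against 33.7 ± 4.71 CPM, adjusted p = 0.00844 in edgeR). These 2 members were the only ones whose libraries did not overlap between the families, at a background of 22.6%. *Cbx1* (0.40 ± 0.13, adjusted p = 0.0364 in edgeR) and *Atf7ip* (0.30 ± 0.09, adjusted p = 0.0337) were also higher in the H3.3 lines. For *Atf7ip* the difference lay in the rescued line (mean 88.9 CPM), since *Daxx* -/- (131.6) was close to the H3.3 lines (133.3). *Ehmt1* (−0.45 ± 0.11, adjusted p = 0.0118 in edgeR), *Trim28* (−0.52 ± 0.16, adjusted p = 0.0303) and *Cbx5* (−0.37 ± 0.13, adjusted p = 0.0484) were lower. *Ehmt2* (0.26 ± 0.11, adjusted p = 0.0909 in edgeR), *Cbx3* (−0.16 ± 0.15) and *Setdb1* (0.07 ± 0.12) did not pass. The median over the members was −0.04 beside −0.01 for all genes.

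*Suv39h1* and *Suv39h2* passed under all 18 alternatives run for this comparison, with adjusted p values of at most 0.0382 and 0.00677. *Ehmt1* failed in 1 of 18, without replicate 1 of *Daxx* -/- + *Daxx* WT (0.0551). *Trim28* lost its call without replicate 1 of *Daxx* -/-, replicate 1 of its rescue, either library of H3.3 KO or of WT H3.3, or mutant replicate 2 (adjusted p 0.0559 to 0.113). *Atf7ip* lost it without replicate 2 of *Daxx* -/-, replicate 2 of its rescue, replicate 1 of H3.3 KO, either WT H3.3 library or mutant replicate 1 (0.0705 to 0.133). *Cbx1* lost it without replicate 2 of *Daxx* -/-, either library of its rescue, or replicate 1 of H3.3 KO, of WT H3.3 or of the mutant (0.0787 to 0.103). *Cbx5* lost it without any single *Daxx* library or replicate 2 of any H3.3 line (0.0509 to 0.121), and with library totals (0.0546) or TMM factors (0.0556). *Ehmt2* gained a call with library totals (0.0227) and without mutant replicate 2 (0.0265). The number of members called was 3 without replicate 1 of the DAXX rescue, and 4 without replicate 2 of *Daxx* -/-, replicate 2 of its rescue, replicate 1 of H3.3 KO or either WT H3.3 library.

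Ratios of paired members within a library do not depend on the scaling. *Suv39h2* over *Suv39h1* was 1.04 and 0.53 in *Daxx* -/- and 0.955 and 0.984 after rescue, so that the paralogs were near parity in 3 of the 4 libraries. It was 2.22 and 2.41 in H3.3 KO, 2.11 and 2.04 with WT H3.3, and 2.26 and 1.98 with the mutant, with no overlap between the families and little spread within the H3.3 lines. *Suv39h2* was higher and *Suv39h1* lower in every H3.3 library. The lack of overlap follows from those levels and is not a separate result. *Trim28* over *Setdb1* was 12.6 to 15 in the *Daxx* libraries. In the H3.3 lines it was 7.89 and 7.9 (KO), 11.4 and 12.7 (WT H3.3), and 8.23 and 6.98 (mutant), the WT H3.3 libraries standing nearest to the *Daxx* lines.

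*Ehmt2* over *Ehmt1* was 1.24 and 1.34 in *Daxx* -/-, 0.898 and 1.01 after rescue, 1.95 and 1.85 in H3.3 KO, 1.28 and 1.4 with WT H3.3, and 2.37 and 2.2 with the mutant. The 3 H3.3 lines were again apart, WT H3.3 overlapping *Daxx* -/-. *Atf7ip* over *Setdb1* was 1.04 and 1.26 in *Daxx* -/- but 0.532 and 0.536 after rescue, and 0.714 to 1.15 in the H3.3 libraries. Of the summed CPM of the 3 HP1 genes, *Cbx1* made up 8.7% to 10.2% in the *Daxx* libraries, 17.6% and 19.1% in H3.3 KO, 12.8% and 14.5% with WT H3.3, and 12% and 11.8% with the mutant. *Cbx3* held 30.1% to 34.8% throughout, and *Cbx5* was lowest, at 47.8%, in replicate 2 of H3.3 KO.

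**Figure D3:**
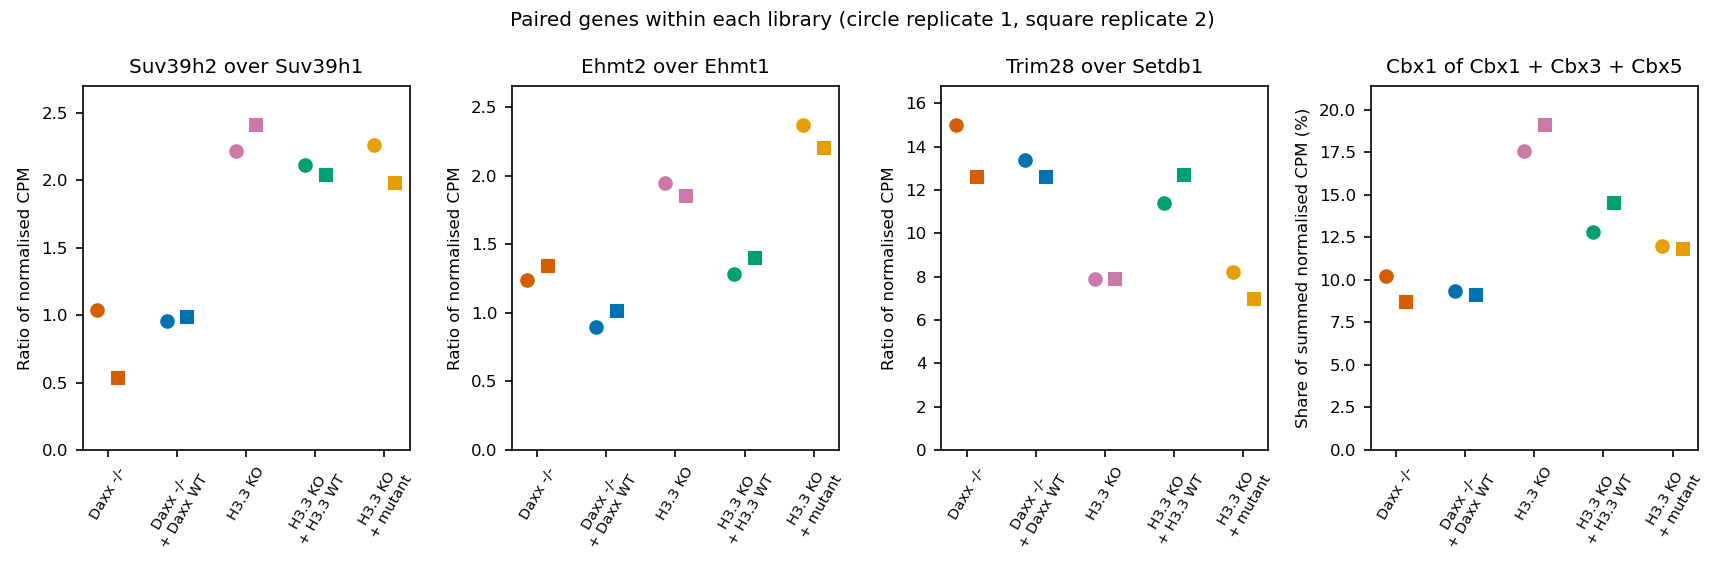
Ratios of normalised CPM for 3 pairs of members, and the share of *Cbx1* (%) in the summed CPM of *Cbx1*, *Cbx3* and *Cbx5*, in each library (circles replicate 1, squares replicate 2, axes from 0). *Suv39h2* over *Suv39h1* lies between 0.53 and 1.04 in the *Daxx* lines and between 1.98 and 2.41 in the H3.3 lines, a separation that follows from the levels of these genes.

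Whether a rescue moved a member differently in the families was tested by the difference of the log2 fold changes. The DAXX effect minus the WT H3.3 effect was 0.76 ± 0.27 for *Setdb1* (adjusted p = 0.286 in edgeR) and 0.66 ± 0.26 for *Suv39h2* (adjusted p = 0.319 in edgeR), and these were the 2 of 10 members with an unadjusted p under 0.05, against 13.8% of all genes. The DAXX effect minus the mutant effect was −0.54 ± 0.21 for *Atf7ip* (adjusted p = 0.401 in edgeR), the only member of 10 under that unadjusted level, against 11% of all genes. No member passed either test after adjustment, and only 6 and 3 of all genes did.

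The other genes of the pathway were taken from 6 lists of 62 genes in all, of which 59 were in the table (2 under another symbol) and 56 were tested. Within the families 3 of 56 passed, each in the DAXX comparison (5.36% beside 1.34% of all genes). *Daxx* itself rose by 1.42 ± 0.19 on the log2 scale, being the gene the transgene carries, so its call was built into the design. The share of 5.36% includes *Daxx* and is not read as an excess. *Zfp932*, a KRAB zinc finger gene, rose by 0.73 ± 0.14 (adjusted p = 0.047 in edgeR), at 80.7 and 68.6 CPM in *Daxx* -/- and 124.5 and 123.6 after rescue. *Cdyl2*, a chromodomain gene related to the G9a partner *Cdyl*, fell by 0.91 on the log2 scale (SE 0.18, adjusted p = 0.0476 in edgeR), from 66.7 and 66.3 CPM in *Daxx* -/- to 33.2 and 37.5. All 3 genes were also called by DESeq2 and limma. In all, DESeq2 called 8 of 56 in this comparison, and 1159 of all 13201 genes. Besides the 3 above, it called *Atf7ip2*, *2810474O19Rik* and 3 *Mage-a* genes. Limma called 8 of 56 on log2(CPM + 1), 5 of them *Mage-a* genes, and 4 on log2(CPM + 0.1). It called 310 and 238 of all genes in these settings. How the *Mage-a* genes reached the test is described below. In the comparisons among H3.3 lines 0 of 56 were called in edgeR, with 6 (WT H3.3 against KO), 9 (mutant against KO) and 9 (mutant against WT H3.3) under an unadjusted p of 0.05, where 13.3%, 16.8% and 12.4% of all genes were. DESeq2 called *2810474O19Rik*, *Atf7ip2* and *Mphosph8* for WT H3.3, *Magea4* for the mutant against KO, and *Magea4*, *Mbd1* and *Uhrf1* for the mutant against WT H3.3. Of all genes DESeq2 called 381, 764 and 478 in these comparisons. Limma called 0 in each on log2(CPM + 1), and *Magea4* alone on log2(CPM + 0.1), for the mutant against WT H3.3, where it called 100 of all genes.

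For the HUSH complex, which spreads H3K9 trimethylation with SETDB1, 3 of 4 listed genes were tested. *Mphosph8*, its chromodomain subunit, was at 92.9 and 84.5 CPM in *Daxx* -/-, 67.6 and 85.1 after rescue, 167.9 and 163 in H3.3 KO, 245.7 and 229.6 with WT H3.3, and 210 and 188.5 with the mutant. It was higher in the H3.3 lines than in the *Daxx* lines (1.27 ± 0.10, adjusted p = 6.46e-05 in edgeR). Its value for WT H3.3 against KO was 0.52 ± 0.15 (adjusted p = 0.204 in edgeR), a difference that DESeq2 called. *Pphln1*, another subunit, had −0.33 ± 0.16 for the mutant against KO and −0.31 ± 0.16 against WT H3.3. Among 10 H3K9 demethylase genes tested, *Kdm4b* had 0.56 ± 0.19 for the mutant against KO (adjusted p = 0.187 in edgeR) and *Jmjd1c* 0.65 ± 0.24 for the DAXX rescue (adjusted p = 0.165 in edgeR), and *Jhdm1d* (*Kdm7a*) −0.50 ± 0.24 for WT H3.3. None of these demethylase values passed in edgeR, DESeq2 or limma.

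Between the families 18 of the 56 genes were called higher in the H3.3 lines and 12 lower, 7 of the latter being *Mage-a* genes whose selection is described below. This was 53.6% of the 56, where 39.7% of all genes were called, 19.3% higher and 20.4% lower. The 53.6% includes these *Mage-a* genes and *Daxx*, which the transgene raised, and is not read as an excess. The counts of single lists are small and are given as a description beside these shares. In the list of SETDB1-KAP1 recruitment, 5 of 15 were higher (*Zfp809*, *Zfp708*, *Atf7ip2*, *Hdac1*, *Hdac2*) and 2 lower (*Zfp568*, *Morc3*). *Atf7ip2*, the paralog of *Atf7ip*, was at 16.7 to 27.7 CPM in the *Daxx* libraries and 32.6 to 58.2 in the H3.3 libraries (0.98 ± 0.10, adjusted p = 0.000182 in edgeR). *Hdac1* (0.76 ± 0.13) and *Hdac2* (0.73 ± 0.08) encode the deacetylases that act beside KAP1. Of 9 genes of the GLP-G9a list 4 were higher, namely *Wiz*, a zinc finger partner of the heterodimer (0.95 ± 0.11), *Setdb2*, a relative of *Setdb1* (1.03 ± 0.14), *Cdyl2* (0.65 ± 0.11) and *Zfp462* (0.63 ± 0.18), and none was lower. Of 10 demethylase genes *Kdm3b*, *Jmjd1c* and *Kdm4c* were higher and *Kdm3a* and *Jhdm1d* lower, and of 12 other silencing factors *Dnmt1*, *2810474O19Rik* (*Resf1*), *Smchd1*, *Yy1* and *Atrx* were higher and *Daxx* lower. The *Daxx* difference lay in the transgene line (207 and 206.1 CPM), as *Daxx* -/- (82.7 and 71.9) lay within the H3.3 range (59.2 to 101.6). *Cdyl2* likewise stood apart only after rescue (33.2 and 37.5 CPM), with 66.7 and 66.3 in *Daxx* -/- and 66.6 to 87.2 in the H3.3 libraries. Genes named for this comparison alone were chosen after their values were seen.

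The *Mage-a* genes, germline genes of the X chromosome that H3K9 methyltransferases are known to repress, were listed as targets. Of the 7 tested, 4 (*Magea2*, *Magea3*, *Magea6*, *Magea10*) reached the expression filter only through the *Daxx* -/- libraries, and 6 had fewer than 2 H3.3 libraries at 1 CPM, so that lower values elsewhere were built into their selection and their levels are given as a description. *Magea6* was at 3.5 and 2.13 CPM in *Daxx* -/-, 0.199 and 0.169 after rescue, and at most 0.062 in the H3.3 libraries. *Magea3* was at 2.83 and 2.35 CPM in *Daxx* -/- and 0.149 and 0.281 after rescue, and was at 0 in 5 of the 6 H3.3 libraries. *Magea4*, which also reached the filter in the other lines, was at 10.4 and 5.25 CPM in *Daxx* -/-, 3.23 and 4.55 after rescue, 0.566 and 3.1 in H3.3 KO, 1.4 and 4.23 with WT H3.3, and 0 and 0.0546 with the mutant. Its DAXX value was −1.01 ± 0.75 (adjusted p = 0.457 in edgeR). Its mutant and WT H3.3 libraries did not overlap (adjusted p = 0.0884 in edgeR), where 45.2% of all genes did not. These levels are low, with only 3 of the 6 H3.3 libraries at 1 CPM or more. The paralogs resemble each other in sequence, so their counts may be split between copies.

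**Figure D4:**
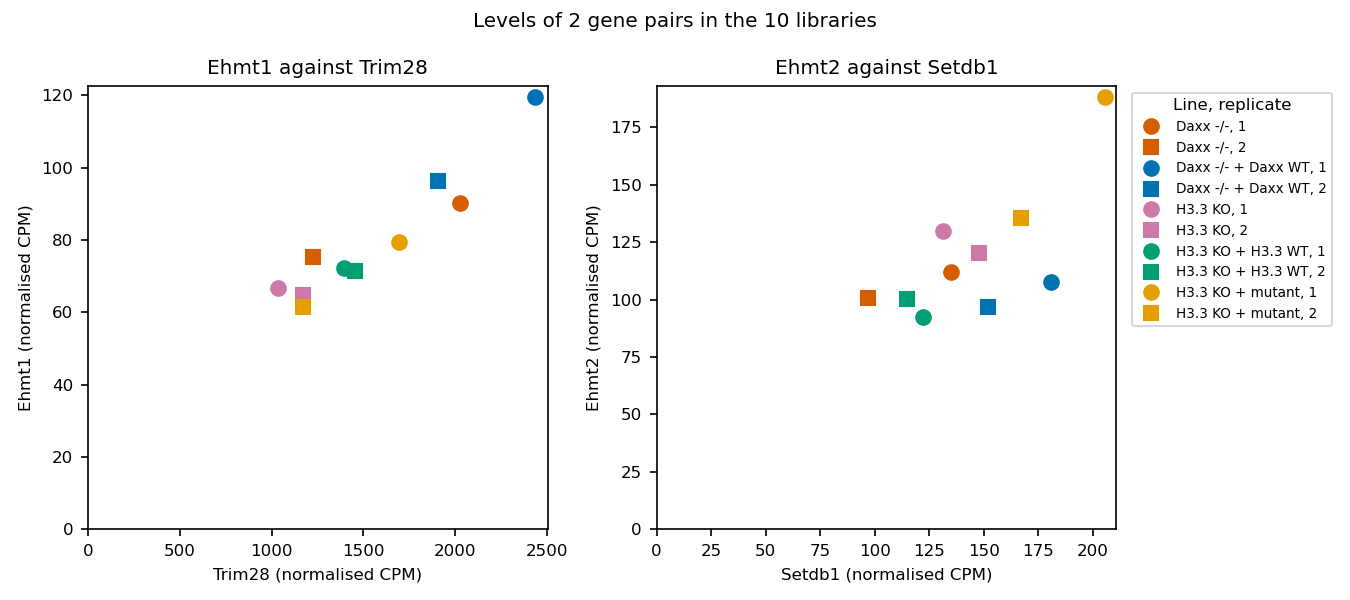
Normalised CPM of *Ehmt1* against *Trim28* and of *Ehmt2* against *Setdb1*, 1 point per library (circles replicate 1, squares replicate 2, colours the lines, axes from 0). The rescued *Daxx* libraries are the highest for *Ehmt1*, while for *Trim28* replicate 1 of *Daxx* -/- (2023 CPM) lies between them (2434 and 1908). Mutant replicate 1 lies at the upper end for *Setdb1* and *Ehmt2*.

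The genes whose pattern over the 10 libraries was most like that of *Setdb1* (Pearson's r of log2(normalised CPM + 1)) were *Lpar6* (0.98), *Bcat2* (0.97) and *Ddx58* (0.94). For *Trim28* they were *Supt5h* (0.99), *Ranbp10* (0.98) and *Pprc1* (0.98). Among the members, *Ehmt1* followed *Trim28* closely (r = 0.93), whereas *Atf7ip* (−0.55) and *Suv39h2* (−0.36) ran against it. *Setdb1* was only loosely related to *Trim28* (0.42) and not to its partner *Atf7ip* (−0.02), and its nearest member was *Ehmt2* (0.67). These 10 points share lines, replicate numbers and families and are given as a description. *Trim28* and *Ehmt1* were both higher in replicate 1 than in replicate 2 of *Daxx* -/-, of its rescue and of the mutant line, and the part of such replicate differences in their likeness was not tested.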

How the data were processed

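The authors aligned PolyA reads with Bowtie and estimated expression with RSEM. Although named TPM, the deposited table holds their expected counts, without scaling; per the labels the build was mm9. Tool versions, the annotation and a strand setting are not given in the sources used here. Expected counts were rounded. Libraries were grouped by genotype as labelled, and every column was used.

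A gene was tested if 2 or more libraries reached 1 CPM (13201 genes). One quasi-likelihood fit over all 10 libraries was made with edgeR (version 4.0.16, R version 4.3.3), using median-of-ratios factors (0.935 to 1.041), in place of the EBSeq used by the authors. P-values were adjusted over all genes by the Benjamini-Hochberg method, and a gene was called under 0.05. Intervals are 95%. The residual degrees of freedom were 5. The fit was checked on simulated data. DESeq2 (version 1.42.0) and limma (version 3.58.1) were alternatives.

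The members, lists and tests were chosen with earlier results of these data known. All members were named. From the pathway lists, called genes were named, or otherwise the gene with the smallest p in each comparison within a family. Likeness was ranked by Pearson's r. Positions were matched by symbol to GENCODE for GRCm38, and promoters come from RefSeq.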

Additional observations from a re-analysis of the deposited data

How the results depend on the processing

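Of 700 alternative values of the members' log2 fold changes, 630 kept their direction and their side of the threshold, 29 lost a call, 11 gained one and 30 changed sign. For DAXX rescue against *Daxx* KO, 1 member was called with library totals, 1 with the replicate block and 1 in DESeq2, and 0 to 2 with 1 library left out. For L126A-L130A against WT H3.3, 1 was called with the replicate block and 2 in DESeq2. Between the families, leaving out 1 library gave 3 to 6 called members. No alternative called a member in the other 2 comparisons.

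The reported values that changed sign under an alternative were at most 0.17 in size on the log2 scale, and under the alternatives they reached −0.29. For the mutant against WT H3.3, *Trim28* had −0.03 with library totals, −0.02 with the replicate block, 0.00 in DESeq2 and −0.02 in limma with either pseudocount (1 or 0.1). For the mutant against H3.3 KO, *Suv39h2* had −0.06 with library totals, 0.00 in DESeq2 and −0.01 when fitted alone. With 1 library left out, values for DAXX rescue ran from −0.19 to 0.28 (*Suv39h1*), −0.14 to 0.02 (*Ehmt2*), −0.12 to 0.36 (*Cbx1*) and −0.10 to 0.30 (*Cbx3*). For WT H3.3 they ran from −0.21 to 0.03 (*Suv39h1*), −0.21 to 0.35 (*Cbx3*) and −0.07 to 0.47 (*Cbx5*). For the mutant against KO they ran from −0.11 to 0.07 (*Atf7ip*), −0.10 to 0.11 (*Suv39h2*) and −0.09 to 0.27 (*Ehmt1*). For the mutant against WT H3.3 they ran from −0.29 to 0.25 (*Trim28*), −0.22 to 0.15 (*Ehmt1*) and −0.13 to 0.19 (*Cbx1*), and between the families from −0.04 to 0.19 (*Setdb1*). The cause was not tested.

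Calls over all genes depended far more on the fit. In the order of the 4 comparisons within families, edgeR called 177, 27, 128 and 68 genes, DESeq2 1159, 381, 764 and 478, and the replicate block 1414, 145, 756 and 327. Replicate differences of 2 lines correlated between −0.04 and 0.58. They were highest among *Daxx* -/-, its rescue and the mutant line (0.55 to 0.58). What libraries of the same replicate number had in common is not given, and the main fit left it out. The block also called *Ehmt2* between the families (adjusted p = 0.0428 in edgeR). With each comparison fitted alone, 1, 761, 48 and 22 genes were called. With 1 library left out the counts lay between 1 and 1896 for DAXX, 1 and 3 for WT H3.3, 2 and 142 for the mutant against KO, and 0 and 65 against WT H3.3. Between the families 5235 genes were called, and 3763 to 6542 under alternatives. A line left with 1 library was assumed to vary like the others.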
